A study of Mus musculus with 6 samples.

Results

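The probes described here were the 11 sense probes whose signal was lower in every mammary tumor of GRS/A mice than in either normal mammary gland. Members were chosen from the values of all 6 arrays. A named sense probe was taken when its scaled signal was at least 100 in both normal glands and every tumor lay below the lower normal gland. Of 404 named sense probes among the deposited values, 278 had at least 100 in both normal glands, and 11 of these met the rule. That is 3.96% of the 278 and 2.72% of the 404. Without the minimum of 100, 14 of the 404 (3.47%) lay below both normal glands in every tumor. Because the rule used these signals, the levels and folds of the members are a description without a test. Each member stood for a different gene: Serpine2, Bmp1, Nr2c2, Il4, Csf3r, Casp2, Cxcr4, Bax, Klf1, Tnfrsf8 and Por.

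The tumor group held 4 samples and the normal mammary gland group 2 samples, all of the strain GRS/A, in which the mouse mammary tumor virus (MMTV) induces mammary tumors. Total RNA was labeled from random primers with Cy3 and hybridized on custom Agilent arrays of 60-base probes, 1 array per sample. No treatment, age or transgene was given for either group, and nothing said that the samples came from different mice, so that the spread between arrays may be partly technical. Tumors 3 and 4 were on 1 slide and tumors 1 and 2 on slides of their own, while it is not known here which slides held the normal glands, so that slide and group cannot be told apart. The extraction protocol in the labels names an organ other than the mammary tissue of the titles, which were followed.

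A sense probe detects the transcript of the named gene. An artificial antisense sequence probe (AFAS probe) has the complementary sequence and detects RNA transcribed from the other strand of the same exons, a natural antisense transcript (NAT). In the normal gland, epithelial ducts lie in a pad of fat with stroma, vessels and immune cells, and a tumor that is mostly epithelium replaces much of that tissue. A signal of a whole tissue therefore depends on its mixture of cells as well as on the RNA of each cell, and in these arrays fewer cells of a type and less RNA per cell cannot be told apart.

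The member probes had little sequence in common. The longest stretch common to any pair of them was 9 bases on the same strand and 8 bases on opposite strands. For 7 of the 11, an AFAS probe of the same gene covered part of the same bases on the opposite strand, so that both strands of 1 stretch were measured. Those 7 probes are printed here with the bases covered by an AFAS probe in capitals, together with the Serpine2 probe, which had the largest distance between tumors and normal glands. All are read 5′ to 3′ from the probe column of the scanner files. The probes of Bmp1, Nr2c2, Tnfrsf8 and Por are shown whole, and 30 bases are shown for the others. No probe was placed on a transcript.
Bmp1: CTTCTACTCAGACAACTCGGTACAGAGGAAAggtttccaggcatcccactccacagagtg
Nr2c2: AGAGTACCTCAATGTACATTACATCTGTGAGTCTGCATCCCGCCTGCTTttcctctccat
Tnfrsf8: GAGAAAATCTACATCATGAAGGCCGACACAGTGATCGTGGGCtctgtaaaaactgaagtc
Por: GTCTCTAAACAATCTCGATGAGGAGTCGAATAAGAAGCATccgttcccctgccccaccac
Il4: TAAACTTAATTGTCTCTCGTCACTGACGGC
Csf3r: GGGGTCCTTGTATCTTGAAGACCCTGCCCT
Bax: TCCTGGGATGAATGGGGGAAGGGGAAAGGC
Serpine2: tttaactcatgacattccccttgtctcagc

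The AFAS probe covered 59 bases of the Csf3r probe, 54 of the Bax probe, 49 of Nr2c2, 45 of Il4, 42 of Tnfrsf8, 40 of Por and 31 of Bmp1. The probes of Klf1, Casp2, Cxcr4 and Serpine2 had no stretch of at least 12 bases in common with the complement of an AFAS probe of their gene. The GC content of the member probes was 38.3% to 66.7% with a median of 45.0%, and that of the 267 other sense probes of at least 100 in both normal glands was 35.0% to 73.3% with a median of 43.3%. The Klf1 probe was the one at 66.7%. A polyadenylation signal (AATAAA or ATTAAA, on the strand shown) was present in 1 member probe, that of Cxcr4 (9.09%), and in 19 of the 267 others (7.12%).

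Serpine2 and Bmp1 encode a protease inhibitor and a protease that act outside the cell. Serpine2 encodes protease nexin 1, a secreted inhibitor of serine proteases such as thrombin and plasminogen activators. Its probe was assigned to Serpine2 because its entry in the authors' value table stood between AFAS probes of that gene, and not by its accession. It gave 621, 1931, 428 and 1171 in tumors 1 to 4 and 5411 and 7139 in normal glands 1 and 2. Tumor 2 was the highest of the tumors and tumor 3 the lowest, and the lower normal gland was 2.80 times the highest tumor. On the log2 scale the tumor mean was lower by 2.82, a 7.06-fold difference between geometric means.

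Bmp1 encodes a secreted metalloprotease that trims procollagens and releases growth factors of the BMP family from their antagonist. Its probe gave 857, 3501, 739 and 1973 in tumors 1 to 4 and 6804 and 9243 in the normal glands. The order of the tumors was that of Serpine2, with tumor 2 highest, then tumors 4, 1 and 3. The lower normal gland was 1.94 times the highest tumor, and the geometric means differed 5.48-fold. Within the tumors the signal of Bmp1 spanned 4.74-fold and that of Serpine2 4.51-fold.

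Il4, Csf3r, Cxcr4 and Tnfrsf8 encode a cytokine and receptors of signalling proteins. Il4 encodes interleukin 4, a cytokine of type 2 helper T cells. It gave 337, 195, 282 and 107 in tumors 1 to 4 and 644 and 550.2 in the normal glands. The highest tumor lay 1.63-fold below the lower normal gland, and the geometric means differed 2.83-fold. Csf3r encodes the receptor of granulocyte colony-stimulating factor, which drives the formation of neutrophils. Its signals were 1388, 2514, 233 and 827 in tumors 1 to 4 and 3894 and 4132 in the normal glands. Tumor 3 was far below the others, so that the tumors spanned 10.8-fold, the widest span of the 11 members, while the normal glands differed 1.06-fold.

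Cxcr4 encodes the chemokine receptor that binds Cxcl12 and guides migrating leukocytes and tumor cells. It gave 5263, 2457, 5257 and 4198 in tumors 1 to 4 and 9939 and 7646 in the normal glands. Tumor 2 was the lowest here, and the highest tumor lay 1.45-fold below the lower normal gland. Tnfrsf8 encodes CD30, a receptor of the tumor necrosis factor family on activated lymphocytes. It gave 50.05, 95.3, 15.1 and 27.1 in tumors 1 to 4 and 106 and 153 in the normal glands, the only member whose normal signal was near the minimum of 100. Its spot was well above background on 3 of the 4 tumor arrays, the exception among 44 member spots on those arrays.

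Members with a role inside the cell included a pair of apoptosis genes. Casp2 encodes caspase 2, a protease that starts one route of programmed cell death. It gave 6832, 7124, 7636 and 5063 in tumors 1 to 4 and 11665 and 16442 in the normal glands, so that the tumors differed 1.51-fold among themselves and lay at least 1.53-fold below the lower normal gland. Bax encodes the member of the BCL2 family that permeabilizes the outer mitochondrial membrane. It gave 4823, 5999, 10769 and 9662 in tumors 1 to 4 and 13187 and 13051 in the normal glands. Tumors 3 and 4, which shared a slide, were the highest for Bax and Klf1 and the lowest for Csf3r, Tnfrsf8 and Nr2c2. For Bax, the highest tumor was 1.21-fold below the lower normal gland.

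Nr2c2 and Klf1 encode transcription factors. Nr2c2, also named testicular receptor 4, is an orphan nuclear receptor. Its probe gave 3043, 3549.9, 2797 and 2616 in tumors 1 to 4 and 6115 and 8435 in the normal glands. These tumors were the most alike of any member, with a span of 1.36-fold, and lay at least 1.72-fold below the lower normal gland. Klf1 is the zinc finger factor that activates beta-globin genes in red cell precursors. Its signals were 332, 253, 399 and 361 in tumors 1 to 4 and 519.8 and 469 in the normal glands. The geometric means of the 2 groups differed 1.49-fold, the smallest difference of the 11. The highest tumor lay 1.18-fold below the lower normal gland.

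Por encodes the cytochrome P450 oxidoreductase, which passes electrons from NADPH to the P450 enzymes of the endoplasmic reticulum. It gave 5684, 9614, 4329 and 13608 in tumors 1 to 4 and 14376 and 16330.0 in the normal glands. Tumor 4 came within 1.06-fold of the lower normal gland, and Por was therefore the member nearest to the limit of the rule.

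The order of the tumors differed between members. Tumors 1 to 4 were the highest for 2, 5, 3 and 1 of the 11 members (18.2%, 45.5%, 27.3% and 9.09%) and for 24.7%, 22.8%, 19.9% and 32.6% of the 267 other sense probes of at least 100 in both normal glands. They were the lowest for 1, 2, 5 and 3 members (9.09%, 18.2%, 45.5% and 27.3%) and for 13.1%, 28.8%, 40.4% and 17.6% of the others. In all, 9 orders of the 4 tumors occurred, of which Serpine2 and Bmp1 shared one and Csf3r and Tnfrsf8 another. The median span of the tumors was 3.14-fold for the members and 2.88-fold for the 267 others. The summed signal of the 11 probes was 29230.1, 37233, 32885 and 39612 in tumors 1 to 4 and 72660 and 83592 in the normal glands.

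The technical precision within an array was read from spots of the same sequence. In 14 pairs of such spots with signals of at least 100, which gave 72 comparisons within an array, the brighter spot was a median of 1.09 times the other, and the 90th percentile was 1.32-fold. This spread does not cover the difference between separate samples, and it was not used to rank the members. The lower normal gland exceeded the highest tumor by more than that 90th percentile for 7 of the 11 members. For Bax, Klf1, Tnfrsf8 and Por it was only 1.21, 1.18, 1.12 and 1.06 times the highest tumor. The error that the scanner software gives was at most 10.7% of the signal for 10 members and up to 28.3% for Tnfrsf8. With 1 such error added, the highest tumor reached the lower normal gland for Por and Tnfrsf8, although this error is also one within an array. No member spot on the tumor arrays was saturated or marked as an outlier.

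Just outside the rule lay Selplg, the leukocyte ligand of P-selectin, with 1005, 2498, 658 and 922 in tumors 1 to 4 and 2544 and 2465 in the normal glands, where tumor 2 exceeded the lower normal gland. Hoxb8, Hras, Serpinh1 and Pdia4 came next, each with 1 tumor above the lower normal gland. A further 3 sense probes lay below both normal glands in every tumor and were left out because a normal gland was under 100. Those of Htr2c and Pold1 had 55.3 to 120.1 in the normal glands and 9.94 to 85.5 in the tumors. Of the 278 sense probes of at least 100 in both normal glands, 149 had no tumor below the lower normal gland, 54 had 1, 31 had 2, 33 had 3 and 11 had all 4. The reverse pattern, every tumor above both normal glands, was found for 112 of the 278 (40.3%).

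The AFAS probes of the member genes were not used by the rule and were compared between tumors and normal glands by limma over all 1749 AFAS probes. The deposited values held 42 of them, from 2 for Il4 and Bax to 6 for Cxcr4. None was lower in tumors past an adjusted p of 0.05 (limma, Benjamini-Hochberg), as for all AFAS probes (0 of 1749, 0%), while 3 of the 42 were lower at an unadjusted p of 0.05, where 58 of all 1749 were (3.32%). By the methods' t-test 0 were lower after the same adjustment. At an unadjusted p of 0.05, 5 of the 42 (11.9%) and 228 of all 1749 (13%) were higher. Past the adjusted threshold 1 of the 42 was higher, an AFAS probe of Nr2c2, against 8 of 1749 (0.457%). Every tumor lay below both normal glands for 4 of the 42 (9.52%) and for 121 of 1749 (6.92%), and among probes of at least 100 in both normal glands for 2 of 17 (11.8%) and 92 of 615 (15%). Every tumor lay above both for 9 (21.4%) and for 378 of 1749 (21.6%). The median log2 difference, tumor minus normal, was 0.22 over the 42 and 0.44 over all AFAS probes. After scaling to the 75th percentile it was -0.18 and 0.04, after scaling to the median -0.05 and 0.18, and after quantile normalization -0.28 and -0.12, so the sign for the member genes depended on the scaling.

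For Nr2c2, the AFAS probe past the threshold gave 102, 91.2, 75.4 and 169.8 in tumors 1 to 4 and was listed at the floor of 5 on the arrays of both normal glands (log2 difference 4.39 with that floor, standard error 0.46, adjusted p = 0.0274 from limma). A fold cannot be formed against the floor, and with a floor of 20 the difference was 2.39 (adjusted p = 0.116 from limma). The probe did not pass when tumor 1, 3 or 4 was left out (adjusted p = 0.0672, 0.0550 and 0.113 from limma). The log2 differences were then 4.40, 4.54 and 4.15 with the floor of 5. Without normal gland 1 or 2 the difference was 4.39, and no call is read from 1 gland. This AFAS probe did not overlap the member probe. The AFAS probe that covered 49 bases of it gave 324, 148, 142 and 303 in tumors 1 to 4 and 114 and 87.1 in the normal glands. Its tumors all lay above both normal glands, but its log2 difference of 1.10 (standard error 0.53) did not pass (adjusted p = 0.362 from limma).

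The AFAS probes that lay below both normal glands in every tumor belonged to Bmp1, Il4, Casp2 and Por. The Bmp1 probe gave 685, 601.5, 826 and 652 in tumors 1 to 4 and 1794 and 2325 in the normal glands, a log2 difference of -1.57 with a standard error of 0.38 (adjusted p = 0.171 from limma). Its tumors were close together, unlike those of the sense probe. The Il4 probe gave 64.8, 64.3, 14.4 and 45.04 in the tumors and 152 and 135 in the normal glands (log2 difference -1.82, standard error 0.71, adjusted p = 0.269 from limma). For Casp2 the signals were 19.1, 57.6, 55.2 and 14.98 against 90.4 and 71.2 (log2 difference -1.38, standard error 0.70, adjusted p = 0.381 from limma). None of these 3 probes overlapped the member probe of its gene. Of the 4 probes, only that of Por covered the member probe itself.

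That AFAS probe of Por, complementary to the 40 capital bases of the Por probe, gave 19.04, 39.4, 5 and 22.8 in tumors 1 to 4 and 133 and 59.8 in the normal glands. Its log2 difference was -2.38 with a standard error of 0.88 (adjusted p = 0.259 from limma), with tumor 3 at the floor. It was well above background on 2 of the 4 tumor arrays. The sense signal of Por, chosen by the rule, was 1.06-fold from its limit, and Por no longer met the rule when arrays were scaled to the same median.

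The overlapping AFAS probes of the remaining genes did not separate the groups downwards. For Bax, the AFAS probe complementary to 54 bases gave 7674, 11422, 2356 and 6983 in tumors 1 to 4 and 5532 and 3464 in the normal glands, with the groups overlapping (log2 difference 0.49, standard error 0.70, adjusted p = 0.755 from limma). Tumor 3 was the highest for the sense probe of Bax and the lowest for this one. For Csf3r, the AFAS probe complementary to 59 bases gave 108, 100.2, 41.5 and 119 in tumors 1 to 4 and 116 and 65.4 in the normal glands (log2 difference -0.03, standard error 0.58, adjusted p = 0.991 from limma).

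For Bmp1, the AFAS probe complementary to 31 bases gave 76.1, 19.0, 20.8 and 30.4 in tumors 1 to 4 and stood at the floor for each normal gland (adjusted p = 0.172 from limma). Among the AFAS probes of Bmp1 were therefore 1 below and 1 above both normal glands in every tumor. The overlapping AFAS probe of Il4 had no signal above 40.4 on any array, with 1 normal gland at the floor, and was well above background on 2 tumor arrays (log2 difference 0.77, adjusted p = 0.734 from limma). That of Tnfrsf8 was well above background on 0 of the 4 tumor arrays, with 2 tumors and 1 normal gland at the floor, so no difference is read from it. Of the 34 AFAS probes of member genes with no tumor at the floor, 2 had the same order of the 4 tumors as the sense probe (5.88%), against 37 of 830 (4.46%) for other genes whose sense probe had at least 100 in both normal glands. They belonged to Bmp1, with 26794, 49057, 7949 and 42088 in tumors 1 to 4, and to Tnfrsf8, with 274, 692, 115 and 159.

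Other genes of the members' pathways on the sense strand were described from lists chosen with earlier results known. Over all 404 sense probes limma placed 58 higher (14.4%) and 1 lower (0.248%) in tumors past an adjusted p of 0.05. The lower one was the Serpine2 probe, which the same contrast had chosen, so nothing is read from it. The total of 59 calls became 1, 48, 89 and 0 without tumors 1 to 4. Leaving out a normal gland leaves 1 in that group, so that the tumors alone give the spread, and no count is read there. Without the members, no gene of any list was lower past the threshold, and the median log2 difference was above 0 for each of the 7 pathway lists as deposited, under the 3 other scalings and with a floor of 20, as was that of all sense probes (0.91 on the deposited scale).

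In a list of extracellular proteases, their inhibitors and related genes, 14 genes besides Serpine2 and Bmp1 were measured, and 1 was higher. Ctsd, the lysosomal protease cathepsin D, gave 20015 ± 5876 (SD, n = 4) in the tumor group and 5884 ± 2746 (SD, n = 2) in normal glands and did not pass (log2 difference 1.81, adjusted p = 0.0513 from limma).

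Among 15 other genes of TGF-beta and BMP signalling, 2 were higher. Bmp4, a ligand, gave 3386 ± 2942 (SD, n = 4) in the tumor group and 4418 ± 1949 (SD, n = 2) in normal glands, and Tgfb1 gave 2883 ± 2135 (SD, n = 4) and 957 ± 154 (SD, n = 2). Neither passed (adjusted p = 0.575 and 0.166 from limma). Of 10 other nuclear receptors 1 was higher. Esr1, the estrogen receptor alpha, gave 886, 2654, 731 and 7584 in tumors 1 to 4 and 4339 and 5416 in the normal glands, so that 3 tumors lay below the lower normal gland and tumor 4 above both (adjusted p = 0.340 from limma).

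Of 15 other apoptosis genes 3 were higher. Mdm2, the ubiquitin ligase of p53, gave 5952 ± 968 (SD, n = 4) in the tumor group and 2992 ± 517 (SD, n = 2) in normal glands and did not pass (adjusted p = 0.130 from limma). Of 17 other cytokine and chemokine genes 2 were higher, and Il11 gave 2328 ± 843 (SD, n = 4) in the tumor group and 2152 ± 316 (SD, n = 2) in normal glands (adjusted p = 0.963 from limma). The lists of 16 cell cycle genes and of 22 growth factor genes held no member, and 2 and 4 of their genes were higher. Cdkn1b, the inhibitor p27 of cyclin-dependent kinases, was one of them, with 2971 ± 1317 (SD, n = 4) in the tumor group and 358 ± 158 (SD, n = 2) in normal glands (adjusted p = 0.0251 from limma). The call was lost when tumor 1 or 4 was left out (adjusted p = 0.0778 and 0.0564 from limma). The log2 difference was then 2.89 or 2.76, against 3.01 with all arrays. Without normal gland 1 or 2 it was 3.47 or 2.54, and no call is read from 1 gland.

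Markers of the cell types in the gland were also read on the sense strand. The 3 markers of luminal epithelium measured, Krt18, Krt19 and Prlr, were above both normal glands in every tumor. So were 172 of all 404 sense probes (42.6%). The 3 luminal markers summed to 29052, 24364, 27527 and 110970.0 in tumors 1 to 4 and 4962 and 4164 in the normal glands. Krt18, a keratin of luminal cells, passed the test (adjusted p = 0.0207 from limma), but not without tumor 1 or tumor 4 (adjusted p = 0.0778 and 0.0563 from limma). Without normal gland 1 or 2 its log2 difference was 3.70 or 2.97, against 3.33 with all arrays, and no call is read from 1 gland. Krt19 and Prlr did not pass (adjusted p = 0.100 and 0.0566 from limma). The part of the luminal difference in the lower signals of the members was not tested. The 1 basal marker, Krt14, gave 4258, 5193, 1752 and 2658 in tumors and 3692 and 2463 in normal glands. None of the 20 adipocyte markers listed was among the named sense probes, so the fat of the normal gland could not be followed.

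Serpine2 was one of 6 stromal markers measured. The sum of the other 5 (Timp2, Mmp2, Vim, Pdgfrb and Pdgfra) was 2897, 3339, 895 and 2460 in tumors 1 to 4 and 1829 and 924 in the normal glands, with Pdgfra at the floor in normal gland 2, and none passed the test. Csf3r was one of 19 leukocyte markers. The 18 others summed to 32094, 44776, 13539 and 19772 in tumors 1 to 4 and 14792 and 9310.2 in the normal glands, and none passed the test. Of the 18, 5 had a lower log2 mean in tumors, among them Cd7 and Pax5, and Cd4 contributed the most with 15502, 31636, 7659 and 10063 in tumors 1 to 4. Among the 5 endothelial markers, the probe of Flt1 gave the highest mean signal. The 5 summed to 4056, 5774, 3409 and 5947 in the tumors and 4272 and 3129 in the normal glands. Whether the mixture of cells had a part in the lower signals of the 11 members was not tested.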

How the data were processed

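Arrays of 4 tumors and 2 normal mammary glands were used. The intensity values are those the authors deposited: background-corrected signals of Agilent Feature Extraction (version 9.1.3.1 per the file headers), scaled by 1 factor per array and set to 5 where below 5 or not above background. The table has no probe names. Each entry was assigned the probe whose signals on the 4 tumor arrays matched it within rounding, 2153 of 2156 in all (42 of them by neighbouring entries, none of these a member), and 3 were left out. Gene names came from accessions in a RefSeq gene table (GRCm38.p6). Where an accession gave none, the description or gene name of the probe was used. A sense probe still without a name took the gene of AFAS probes linked to it by probe number or by place in the value table. No coordinates are given because no build is named. Masked spots and scanner files of normal glands were not used here.

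AFAS and sense probes were tested separately on log2 signals by the two-sided moderated test of limma 3.58.1 (R 4.3.3) with Benjamini-Hochberg adjustment and a threshold of 0.05. The test was checked on simulated data that had no floor, so the check does not cover probes with arrays at the floor. The exact permutation test over the 15 splits cannot go below p = 0.0667 and was not used. Python 3.11.15, numpy 2.4.6, pandas 2.3.3 and scipy 1.17.1 did the rest. The members, gene lists and tests were chosen with earlier results of these data known. Every member was named; AFAS probes past the threshold, below both normal glands in every tumor or overlapping the member probe were given with values, and of each list up to 4 genes with the highest mean signal were eligible. Other genes were named after their values were seen. Some genes that the rule gives are not reported here. The alternatives were 3 scalings, a floor of 20, minimums of 50 and 200, a 1.5-fold distance, normexp with an offset of 50, only probes reaching 100 on an array, other tests, a replicate block and each array left out. The number of arrays limits the precision.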

Additional observations from a re-analysis of the deposited data

Results flagged for a closer look

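The signals of the 4 tumors were examined for 1 array far from the others in 53 probes (11 member probes and the 42 AFAS probes of their genes), and 9 AFAS probes had such a gap. Chance marks about 1 in 20 groups of independent values, a rate that cannot be set against this count, because 3 of the 9 had their other 3 tumors at the floor and 2 were the same sequence. No member sense probe was among them. For Cxcr4, a pair of AFAS probes of identical sequence both had tumor 3 far above the other tumors, at 2089 against 169.8 to 205 and at 1474 against 192 to 216, while the normal glands lay between 134 and 167. The gap was 0.982 and 0.981 of the range. For Por, tumor 1 was the lowest at 301 against 533 to 571. Tumor 1 was the highest for 3 AFAS probes of Csf3r (111 against 42.6 to 51.6, 47.5 against 5 to 5.87 and 12.6 with the others at the floor), for 2 of Casp2 (48.7 against 7.45 to 14.04, and 7.22 with the others at the floor) and for 1 of Klf1 (31.0 with the others at the floor). Tumor 1 had 0.881% of all table values at the floor, and tumors 2 to 4 had 11.7%, 11.97% and 12.9%. The share was 24.4% and 31.1% in normal glands 1 and 2.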

How the results depend on the processing

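The count of 11 sense probes depended on the scaling, and the members were mostly kept. It was 24 with 75th percentile scaling, 17 with median scaling and 27 with quantile normalization, and 11, 10 and 11 of the members were among them, Por being lost with median scaling. The median log2 difference of all probes was 0.50 as deposited and 0.10, 0.23 and -0.03 under these scalings. A floor of 20 left the 11 in place. With the tumor arrays alone corrected by normexp the count was 45, all 11 included. The count was 6 when every tumor had to be 1.5 times below, 14 with a minimum of 50, 10 with a minimum of 200 and 14 with no minimum, the last chosen after seeing the data. It lay between 14 and 25 with 1 array left out (18, 25, 20 and 14 without tumors 1 to 4 and 15 and 20 without normal glands 1 and 2), since leaving out an array can only add probes. The AFAS probe of Nr2c2 was the 1 higher call. That count was 0 with a floor of 20 and with either version of the methods' t-test. With 1 tumor left out it was 0 or 1. A fit with 1 normal gland takes its spread from the tumors alone, so its counts of calls are not listed. The 3 AFAS probes lower at an unadjusted p of 0.05 became 5 with 75th percentile or median scaling and 1 with the methods' t-test on log2 signals. With 1 tumor left out they were 1 to 4, being 1 without tumor 1 or 4. The 4 AFAS probes below both normal glands became 9 with 75th percentile scaling and 10 with quantile normalization, and 4 to 7 with 1 array left out (7 without tumor 1, tumor 2 or normal gland 2). No AFAS probe of a member gene was lower past the adjusted threshold under any alternative run. The 59 sense calls became 23, 30 and 24 with the 3 scalings and 0 and 1 with the methods' t-test on linear and log2 signals. They were 0 to 89 with 1 tumor left out (1 without tumor 1, 89 without tumor 3 and 0 without tumor 4). With the replicate number as a block the Nr2c2 call fell to 0, the unadjusted lower count to 1 and the sense count to 0. Only numbers 1 and 2 are shared, and the block rests on a shared number alone. The deviations of same-numbered arrays had correlations of -0.02 and 0.05. With 2 normal glands, the deviations of each mirror those of the other, so nothing is read from these correlations. The alternatives were run for the 11 AFAS probes that passed, overlapped the member probe or lay below both normal glands in every tumor. Among these the sign turned for the overlapping probes of Il4, Csf3r and Tnfrsf8, and the cause was not tested. For Il4 the difference was -0.16 with quantile normalization, -0.52 without normal gland 2 and up to 2.07 with 1 array left out. For Csf3r it was 1.52 in linear signal units, 0.26 with the replicate block, 0.32 without tumor 3 and 0.39 without normal gland 1. The Csf3r difference went down to -0.44 with 1 array left out. That of Tnfrsf8 was 0.18 with the block, 0.69 without normal gland 2 and down to -1.71 with 1 array left out. This Tnfrsf8 probe was well above background on 0 of the 4 tumor arrays.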
